A study of Mus musculus with 3 samples.

Results

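The genes described here encode the receptors for parathyroid hormone (PTH), calcitonin and calcitonin gene-related peptide (CGRP), the receptor activity-modifying proteins (RAMPs) that partner some of them, and 3 of the peptide ligands. They were chosen by symbol: Pth1r, Pth2r, Calcr and Calcrl (receptors), Ramp1, Ramp2 and Ramp3, and Pth, Pthlh and Adm (ligands). All 10 symbols were found among the 25410 symbols of the deposited files, and they took up 15 of the 30795 rows. The samples were 3 replicate RNA-seq libraries of the mouse line IDG-SW3, an osteocytic line, at day 35 of differentiation, each harvested after 24 h with 100 nM PTH. The line carries a conditional T antigen, and interferon-gamma was left out of the medium during differentiation. The 3 libraries form 1 group, and vehicle-treated cells are not analysed here. No change under PTH is therefore given for these genes, and each level below is that of treated cells.

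Class B receptors are G protein-coupled receptors with a large extracellular domain that binds peptide hormones. Pth1r, the receptor for both PTH and the PTH-related protein encoded by Pthlh, signals mainly through the stimulatory G protein and cyclic AMP, and it is the receptor through which PTH acts on osteoblasts and osteocytes. The receptor encoded by Calcrl needs a RAMP to reach the cell surface and to choose its ligand: with Ramp1 it binds CGRP, and with Ramp2 or Ramp3 it binds adrenomedullin, the product of Adm.

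The libraries held 35195518, 37299517 and 45240005 counts in replicates 1, 2 and 3. The file names say RPKM, but the values are whole numbers and were read as counts of reads per row. Levels are given as RPKM, the counts per kilobase of transcript and per 1000000 counts, computed here. Each level was tested against 1 RPKM with edgeR's quasi-likelihood test, fitted to all 21012 genes with a length and at least 1 count, with Benjamini-Hochberg adjustment over all of them. The SE given with a log2 level was derived from that test, as the absolute log2 level over the square root of its F statistic. It is not the SE of the 3 library values. It can be smaller than their spread, which the SD of the RPKM shows, or larger, as for Pth2r below. Osteoblast and osteocyte markers were abundant in part: 8 of 13 were above 1 RPKM and 5 were not called, with Sparc at 6409 ± 408 and Ibsp at 2052 ± 415 RPKM (SD, n = 3), Col1a1 at 488 ± 42.5 and Bglap, with 2 rows, at 319 ± 43.1. Among all genes tested, 43.2% were above and 13.4% below 1 RPKM, and the counts of every list given here stand beside these shares. A gene not called is not thereby near 1 RPKM, since some genes with few counts were far under it and had a wide SE. Among markers of the osteocyte stage, Pdpn (156 RPKM) and Phex (9.05 RPKM) were above 1 RPKM. Mepe (0.436 RPKM), Fgf23 (0.267 RPKM), Dmp1 with 77, 115 and 6 counts and Sost with 2, 0 and 0 counts were not called. These markers were thus mixed relative to the label of osteocytic cells. All 3 libraries were treated with PTH, so an effect of PTH on these markers and the state of the cells cannot be told apart here.

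The 10 genes spanned from Adm, at 31.6 RPKM, to Pth and Calcr, listed at 0 in every library. Adm, Ramp1 and Calcrl were above 1 RPKM and Pth2r was below it. Pth1r, Ramp3, Ramp2 and Pthlh were not called either way. Of the 8 genes with a count, 37.5% were thus above and 12.5% below, beside 43.2% above and 13.4% below among all genes tested, so the shares are close to the background. The median level was 1.18 RPKM over these 8 genes and 0.740 RPKM over all genes tested. With genes at 0 included it was 0.744 RPKM over the 10 genes and 0.497 RPKM over all 23048 genes with a length. In order of mean level at the median transcript length the genes were Adm, Ramp1, Calcrl, Ramp3, Pth1r, Ramp2, Pthlh and Pth2r, followed by the 2 at 0. The ranges over libraries of Adm and Ramp1 did not overlap each other, nor did those of Ramp1 and Calcrl. The order depended on the length taken: with the longest transcript Ramp1 (1.61 to 3.92 RPKM) and Calcrl (1.55 to 2.54 RPKM) overlapped and Calcrl was the higher in replicate 3, and with the bases not shared between the transcripts of a gene (described below for Pth1r) Pth1r had the higher mean, at 2.81 RPKM, than Ramp1, at 2.58, and Calcrl, at 2.18. At the median length, from Calcrl downwards, each gene with counts overlapped the next one in the order, and these neighbours did not differ beyond their spread.

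**Figure D1:**
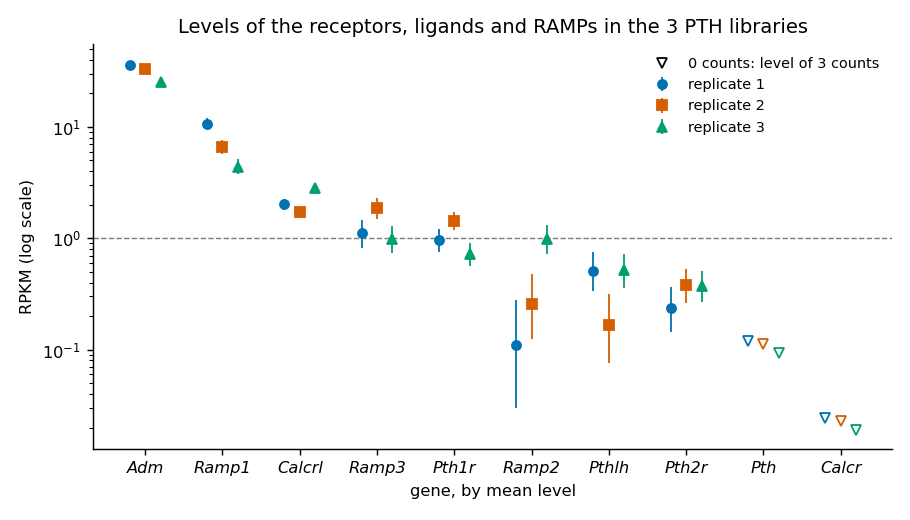
RPKM on a log scale of each gene in the 3 PTH libraries (points), with exact 95% Poisson intervals of the count (bars) and the tested level of 1 RPKM (dashed line). Open triangles mark the level that 3 counts would give in a library with 0 counts. Adm lies between 25.5 and 36.2 RPKM in all libraries, whereas Ramp2 spreads from 0.109 to 0.979 RPKM.

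Of the 10 genes 3 had several rows, and this bears on how their levels are read. Pth1r had 3 rows: the first held 47, 84 and 49 counts in replicates 1, 2 and 3, the second 28, 35 and 23, and the third 0 in every library. All counts of Ramp1 stood in the last of its 3 rows, with 321, 210 and 169. Both rows of Calcr were at 0 in every library. Rows were summed per symbol. Over the whole files, 32.2% of the 3470 symbols with several rows had 0 counts in all libraries, against 5.78% of the 21940 symbols with 1 row. In the GENCODE M21 annotation, symbols were grouped by the number of exonic bases found in only 1 of their RefSeq-linked transcripts, where these were as many as the rows. The share at 0 was 63.1% of 236 symbols with under 100 such bases, 40.3% of 755 with 100 to under 500, 24.0% of 359 with 500 to under 1000, and 18.9% of 774 with 1000 or more. Pth1r had 820 such bases, 29.2% of its 2807 exonic bases, and Ramp1 had 2390, or 79.1% of 3022. How the authors counted reads that match several rows is not given in the sources used here, and its part in the levels of Pth1r, Ramp1 and Calcr was not tested.

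**Figure D2:**
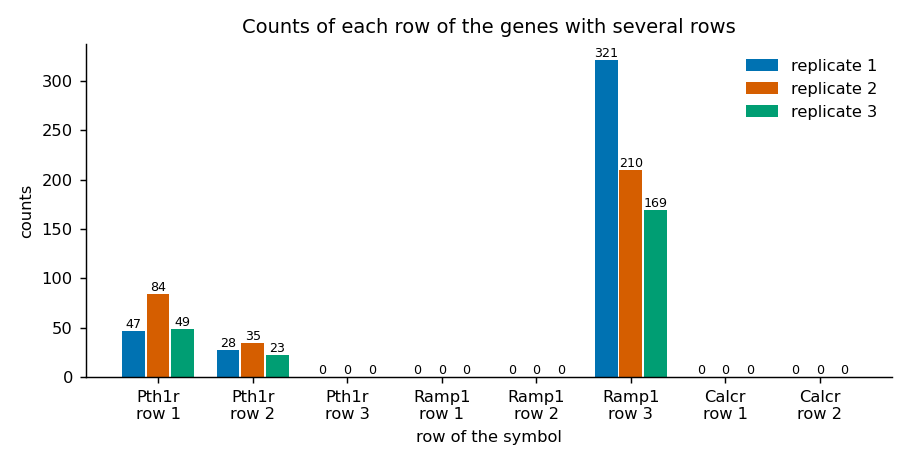
Counts of each row of Pth1r, Ramp1 and Calcr in the 3 libraries, in the order of the deposited files (bars, values printed above). The counts of Ramp1 stand in 1 row of 3, those of Pth1r in 2 rows of 3, and Calcr has none.

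**Figure D3:**
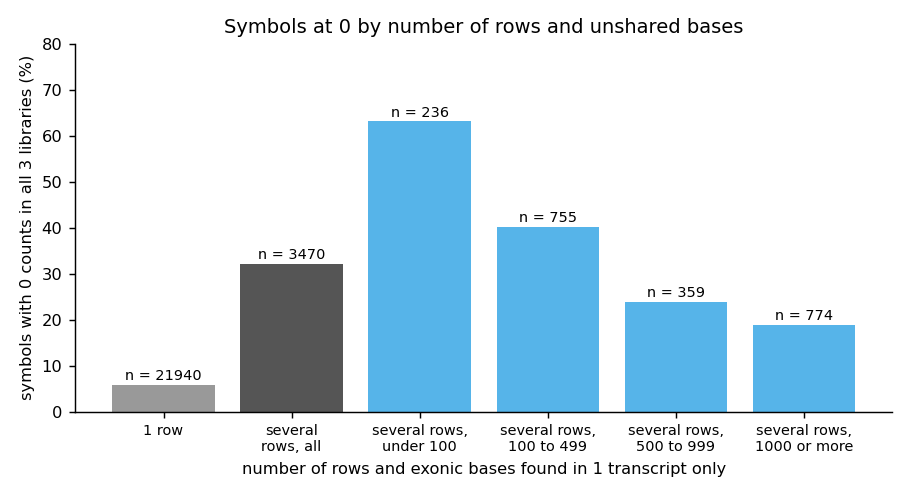
Percent of symbols with 0 counts in all 3 libraries, for symbols with 1 row, for all symbols with several rows, and for those with several rows by the number of exonic bases found in only 1 of their transcripts (n, number of symbols). The share at 0 is 63.1% with the fewest such bases and 18.9% with the most.

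Pth1r, the receptor for the added hormone, was at a level that could not be told from 1 RPKM. Its summed counts were 75, 119 and 72 in replicates 1, 2 and 3, or 0.960, 1.44 and 0.717 RPKM. Replicate 2 was highest and its exact 95% Poisson interval, 1.19 to 1.72 RPKM, did not overlap that of replicate 3, 0.561 to 0.903. The mean was 1.04 ± 0.367 RPKM (SD, n = 3), above the mean of 53.3% of the genes tested, and the edgeR quasi-likelihood adjusted p against 1 RPKM was 0.874 (log2 level 0.05 ± 0.30, SE). When the counts were divided by the 820 unshared bases in place of the median transcript length of 2219 bases, the levels were 2.60, 3.89 and 1.94 RPKM. Pth1r was then called above 1 RPKM (log2 level 1.48, edgeR adjusted p = 2.87e-07). With the mean over its 3 rows it was called below (log2 level -1.53, edgeR adjusted p = 0.0469). Over all 14 alternatives the adjusted p ran from 2.87e-07 to 0.998. The level of Pth1r relative to 1 RPKM therefore depends on how its rows and length are treated. Among 86 other genes of fixed lists (the other class B receptors and ligands, receptor regulators and cell type markers), those nearest to it in the 3 libraries were the convertase gene Pcsk6, the osteoblast transcription factor gene Runx2 and the cartilage proteoglycan gene Acan. Their root mean square differences from Pth1r in log2(RPKM + 0.1) were 0.483, 0.510 and 0.637.

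The 3 RefSeq-linked transcripts of Pth1r differ almost only at their 5′ ends. Counted from the most upstream start, they held 214, 232 and 374 bases found in no other, of which 211, 232 and 374 lay upstream of the first shared exon. The mouse gene is known to use alternative promoters, of which the most upstream is known for its use in kidney and a downstream one for its use in many tissues, bone and cartilage included. The rows carry no transcript name, so no row could be matched to a start. The sequences just upstream of the 3 starts are shown because these starts set apart the 3 annotated transcripts. Pth1r also has 3 rows, but whether the rows stand for these transcripts is not known. They are from RefSeq, build GRCm38.p6, minus strand, at chr9:110747146-110747395, chr9:110743687-110743936 and chr9:110742720-110742860, each printed 5′ to 3′. The last is cut to 141 of its 250 bases, where an annotated exon begins. Capitals mark matches, on either strand, to a few motifs known from promoters. The cyclic AMP response element was searched as TGACGTCA. Its half-site, which lies within the full element, was searched on its own as TGACG. The box bound by the transcription factor Sp1 was searched as GGGCGG, and the TATA box, found at many tissue-specific promoters, as TATAAA.
Pth1r start 1: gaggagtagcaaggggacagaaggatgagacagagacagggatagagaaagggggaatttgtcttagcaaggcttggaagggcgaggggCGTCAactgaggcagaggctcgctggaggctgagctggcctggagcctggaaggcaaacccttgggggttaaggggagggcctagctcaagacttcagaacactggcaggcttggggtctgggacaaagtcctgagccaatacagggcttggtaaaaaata
Pth1r start 2: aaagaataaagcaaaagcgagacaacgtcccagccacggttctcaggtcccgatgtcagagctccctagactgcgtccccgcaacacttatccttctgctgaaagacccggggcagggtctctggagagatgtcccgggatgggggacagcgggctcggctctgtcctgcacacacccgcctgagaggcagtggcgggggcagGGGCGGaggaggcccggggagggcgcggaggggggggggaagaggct
Pth1r start 3: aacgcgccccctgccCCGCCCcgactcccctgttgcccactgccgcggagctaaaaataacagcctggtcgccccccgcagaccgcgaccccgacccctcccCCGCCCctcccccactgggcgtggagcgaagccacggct
The window of 250 bases at the most upstream start held 3 CG dinucleotides, 1 match to TGACG and none to GGGCGG. At the second start there were 16 CG dinucleotides and 1 GGGCGG, and at the last there were 22 and 4, of which 2 lie in the printed bases. The median over all 32851 RefSeq promoter windows was 6 CG dinucleotides. GGGCGG was found in 32.7% of those windows, TGACG in 17.8%, TATAAA in 12.4% and TGACGTCA in 1.55%. A match describes the letters and is no evidence of binding.

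Pth2r, the receptor for the tuberoinfundibular peptide encoded by Pth2, had 20, 34 and 41 counts, or 0.235, 0.378 and 0.375 RPKM in replicates 1, 2 and 3. All 3 libraries lay under 0.4 RPKM, with a mean of 0.330 ± 0.0815 RPKM (SD, n = 3). It was called below 1 RPKM (log2 level -1.60 ± 0.70, SE, edgeR adjusted p = 0.0422). The call was lost without replicate 1, 2 or 3 (edgeR adjusted p = 0.135, 0.167 and 0.0507), and over all alternatives the adjusted p ran from 0.00619 to 0.55. Pth1r was higher than Pth2r in 3 of 3 libraries, with RPKM ratios of 4.08, 3.81 and 1.91. The log2 ratio of Pth1r over Pth2r ran from 0.04, with the mean over the rows of Pth1r, to 2.72, with its unshared bases, over the alternatives tried.

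The 2 ligands of Pth1r were low or not detected. Pthlh, which encodes PTH-related protein, the local ligand in cartilage and bone, had 26, 9 and 34 counts in replicates 1, 2 and 3. These gave 0.512, 0.167 and 0.521 RPKM, with replicate 2 the lowest, and a mean of 0.400 ± 0.202 RPKM (SD, n = 3). The level was not called against 1 RPKM (log2 level -1.32 ± 0.85, SE, edgeR adjusted p = 0.16), although the limma alternative called it below (adjusted p = 0.0135). Over the alternatives the adjusted p ran from 0.0135 to 0.581. Pth, the gene of the hormone itself, which the parathyroid gland makes and which was supplied here as a peptide, had 0 counts in all 3 libraries. A count of 0 allows 3 counts per library, or up to 0.12, 0.113 and 0.0934 RPKM, for counting error only. The measured level of Pthlh was 4.27, 1.48 and 5.58 times that limit in replicates 1, 2 and 3, without allowance for its own counting error. In replicate 2 the exact 95% Poisson interval of Pthlh, 0.0765 to 0.318 RPKM, included the limit of 0.113 RPKM. A difference from Pth is therefore not shown in that library. The cartilage markers that go with Pthlh in growth plates were uneven, with 3 of 8 above 1 RPKM, 2 below and 3 not called, and their summed level ran from 49.1 to 68 RPKM. Comp made up most of it at 49.9 RPKM. Sox9, at 4.17 RPKM, and Col10a1, at 3.90 RPKM, were also above 1 RPKM. Below it were the defining collagen gene Col2a1, with 2 rows, at 0.118 RPKM and Acan at 0.687 RPKM. Their part in the level of Pthlh was not tested.

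Adm, the gene of adrenomedullin, a vasodilator peptide that osteoblasts also make, was the highest of the 10 genes. It had 1769, 1716 and 1603 counts, or 36.2, 33.1 and 25.5 RPKM in replicates 1, 2 and 3. Replicate 3 was lowest, and its exact 95% Poisson interval of 24.3 to 26.8 RPKM lay below those of the others. The mean of 31.6 ± 5.49 RPKM (SD, n = 3) exceeded the mean of 89.9% of the genes tested. Adm was called above 1 RPKM (log2 level 4.97 ± 0.05, SE, edgeR adjusted p = 4.44e-140), and it was called above under every alternative listed, with log2 levels of 4.83 to 5.11. The sequence upstream of its start is shown because this gene is the most abundant of the set and has a single annotated start (RefSeq, GRCm38.p6, plus strand, chr7:110627407-110627656). Capitals mark the same motifs as above.
Adm start 1: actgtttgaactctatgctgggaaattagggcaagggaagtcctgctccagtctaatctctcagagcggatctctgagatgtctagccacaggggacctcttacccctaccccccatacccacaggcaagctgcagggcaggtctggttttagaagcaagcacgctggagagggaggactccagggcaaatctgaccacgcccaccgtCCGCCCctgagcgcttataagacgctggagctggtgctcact
It held 7 CG dinucleotides and 1 GGGCGG, and no exact match to the other motifs searched. Variant spellings were not searched, such as the TATAAG that this stretch holds near its 3′ end. Adm exceeded Pthlh in 3 of 3 libraries, with RPKM ratios of 70.6, 198 and 48.9. It likewise exceeded the receptor gene Calcrl in 3 of 3 libraries, with ratios of 17.8, 19.3 and 9.12.

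Calcrl, the shared receptor subunit for CGRP and adrenomedullin, was called above 1 RPKM at the median transcript length. Pth1r was also called above with its unshared bases as length, and DESeq2 did not call Calcrl. It had 316, 283 and 560 counts, or 2.03, 1.71 and 2.80 RPKM in replicates 1, 2 and 3. Replicate 3 was highest, and its interval of 2.57 to 3.04 RPKM did not overlap the others. The mean was 2.18 ± 0.557 RPKM (SD, n = 3), with a log2 level of 1.12 ± 0.14 (SE, edgeR adjusted p = 4.28e-13). With DESeq2 the log2 level was also 1.12 but the adjusted p was 0.35, and the adjusted p over all alternatives ran from 1.99e-16 to 0.35. Calcrl was higher than Pth1r in 3 of 3 libraries, with RPKM ratios of Pth1r over Calcrl of 0.474, 0.839 and 0.257. With the unshared bases of Pth1r as its length, the mean log2 ratio changed sign, at 0.33 against -1.02. Calcrl is abundant in endothelial cells. Of 9 endothelial markers 1 was above 1 RPKM, 2 were below, 4 were not called and 2 (Pecam1 and Emcn, with 2 rows each) were at 0, and their summed level was 4.08, 3.66 and 4.19 RPKM in replicates 1, 2 and 3. Kdr, a receptor for vascular endothelial growth factor, made up most of that sum, at 2.68, 2.41 and 2.76 RPKM in replicates 1, 2 and 3. Vwf, the gene of von Willebrand factor, had 42, 55 and 102 counts, whereas Cdh5, a defining endothelial cadherin, had 20, 36 and 0. Kdr, Vwf and Robo4 (5, 0 and 9 counts) were highest in replicate 3, as Calcrl was, but Kdr differed little between replicates 1 and 3. Cdh5, Tie1 (15, 10 and 0 counts) and Esam (8, 4 and 0 counts) were at 0 in replicate 3. Tek was highest in replicate 1, at 0.456, 0.212 and 0.340 RPKM in replicates 1, 2 and 3. The markers were thus mixed in this respect. The part of endothelial cells in the level of Calcrl was not tested. In these bulk libraries fewer cells expressing a gene and less RNA per cell cannot be told apart.

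Calcr, the calcitonin receptor gene, is best known from osteoclasts and is also described in mouse osteocytes. It was listed at 0 in both of its rows in every library. Since many symbols with several rows were at 0, this value is not read as absence. No fold against Calcr is given for the same reason. Osteoclast markers showed 2 of 9 above 1 RPKM, 3 below, 2 not called and 2 at 0 (Acp5 with 3 rows and Nfatc1 with 6). Their summed level of 311 to 356 RPKM came almost wholly from Ctsk (321 RPKM), which cells of the osteoblast lineage also express. The other gene above 1 RPKM was Itgb3, the integrin beta-3 subunit abundant on osteoclasts, with 1102, 1362 and 1120 counts and a mean of 5.34 RPKM. The receptor gene Csf1r, which defines the macrophage lineage of osteoclasts, was at 0.152 RPKM and Tnfrsf11a, which encodes the receptor RANK, at 0.102 RPKM, both below 1 RPKM. The part of osteoclast-lineage cells in these values was not tested.

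**Figure D4:**
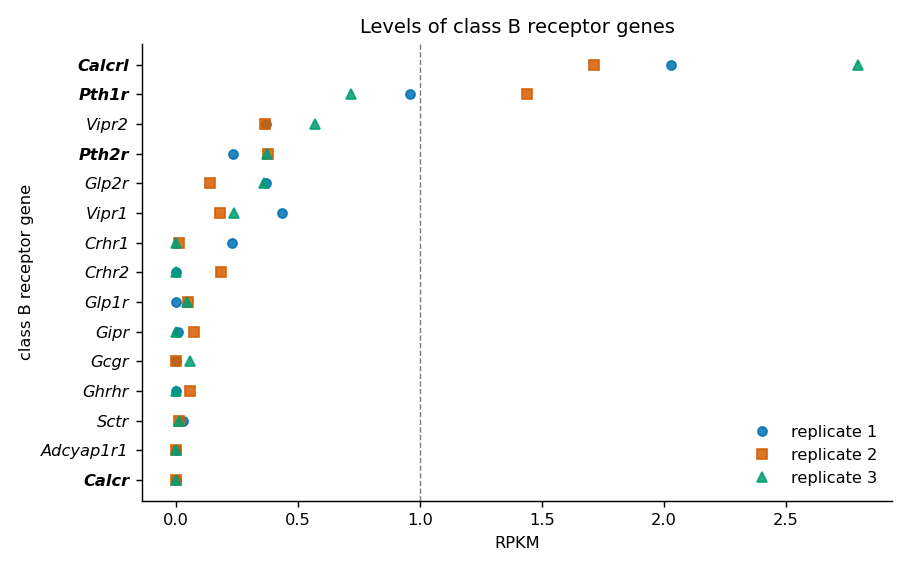
RPKM of the 4 receptor genes described here (bold) and of 11 other class B receptor genes in the 3 libraries (points) at the median transcript length, ordered by mean, with 1 RPKM as a dashed line. Only Calcrl has all 3 libraries above 1 RPKM, and the other 11 receptors lie at or below 0.569 RPKM.

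The 3 RAMP genes differed in level and in how they varied. Ramp1, the partner for CGRP binding, was the highest, with 321, 210 and 169 counts, or 10.7, 6.61 and 4.39 RPKM in replicates 1, 2 and 3. The exact 95% Poisson intervals of the 3 libraries did not overlap (9.57 to 11.9, 5.75 to 7.57 and 3.75 to 5.10 RPKM), so the libraries differed by more than counting error. The mean was 7.23 ± 3.21 RPKM (SD, n = 3), with a log2 level of 2.84 ± 0.15 (SE, edgeR adjusted p = 3.78e-38). Ramp1 was called above 1 RPKM under every alternative listed, but its level depended on the length taken: its annotated transcripts run from 711 to 2325 bases with a median of 852, and the mean level was 8.67 RPKM with the shortest, 2.65 with the longest and 2.58 with the 2390 unshared bases.

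Ramp3, a partner for adrenomedullin binding, had 48, 86 and 55 counts, or 1.11, 1.87 and 0.986 RPKM. Replicate 2 was highest, and its interval of 1.496 to 2.31 RPKM lay above those of the others. The mean of 1.32 ± 0.480 RPKM (SD, n = 3) was not called against 1 RPKM (edgeR adjusted p = 0.304, and 0.171 to 0.919 over the alternatives). An annotated gene on the opposite strand, Gm11978, overlaps the exons of Ramp3 by 101 bases. It held 14 counts over the 3 libraries, and since the treatment of strand is not given, the reads of that stretch cannot be told apart.

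Ramp2, the other partner for adrenomedullin binding and the one known for its role in blood vessels, had 4, 10 and 46 counts, or 0.109, 0.258 and 0.979 RPKM in replicates 1, 2 and 3. Replicate 3 was 8.95-fold higher than replicate 1 as a share of all counts, the widest spread among the 8 genes with counts. Its interval, 0.717 to 1.31 RPKM, overlapped neither that of replicate 1 (0.0298 to 0.28) nor that of replicate 2 (0.124 to 0.475). The mean of 0.449 ± 0.465 RPKM (SD, n = 3) was not called against 1 RPKM (edgeR adjusted p = 0.27). The limma alternative called it below (adjusted p = 0.0225), and over the alternatives the adjusted p ran from 0.0225 to 0.611. Without replicate 3 the log2 level was -2.43, against -1.15 with all libraries. Replicate 3 was also the library with the most Calcrl. With 3 libraries no relation between these genes was tested.

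Ratios within a library set the subunits against each other (11 pairs, on the log2 scale of RPKM + 0.1). The smallest p that 3 libraries allow in an exact two-sided permutation test over signs is 0.25, and at the median transcript length every pair gave that p, since all 3 libraries of each pair went the same way. For Pthlh over Pth and Calcrl over Calcr this direction was fixed by the 0 counts of the second gene. Ramp1 exceeded Ramp2 by RPKM ratios of 97.8, 25.6 and 4.48 in replicates 1, 2 and 3. Over the pooled counts the ratio per kilobase was 14.2, with an exact 95% binomial interval of 10.9 to 18.8, which covers counting error only. The libraries spread more widely than that interval. The mean log2 ratio of Ramp1 over Ramp2, 3.99, was 2.71 with the longest transcript, 2.54 with unshared bases, 2.45 with the mean over rows and 4.96 without replicate 3. Ramp1 exceeded Ramp3 by ratios of 9.68, 3.53 and 4.45. Their mean log2 ratio, 2.33, was 0.92 with the longest transcript, 0.88 with unshared bases and 0.78 with the mean over rows. Ramp2 was lower than Ramp3 in replicates 1 and 2, with ratios of 0.0989 and 0.138, and close to it in replicate 3, at 0.993. Set against the receptor subunit, Ramp1 exceeded Calcrl by ratios of 5.28, 3.86 and 1.57, and the mean log2 ratio of 1.62 ± 0.89 (SD, n = 3) was 0.34 with the longest transcript, 0.17 with unshared bases and 0.08 with the mean over rows. The ratio of Ramp2 to Calcrl was 0.0540, 0.151 and 0.350 in the same libraries. At the median length the order of the RAMP genes was Ramp1, Ramp3, Ramp2 in all 3 libraries, but with the shortest transcript Ramp2 (1.13 RPKM) was above Ramp3 (0.986 RPKM) in replicate 3.

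**Figure D5:**
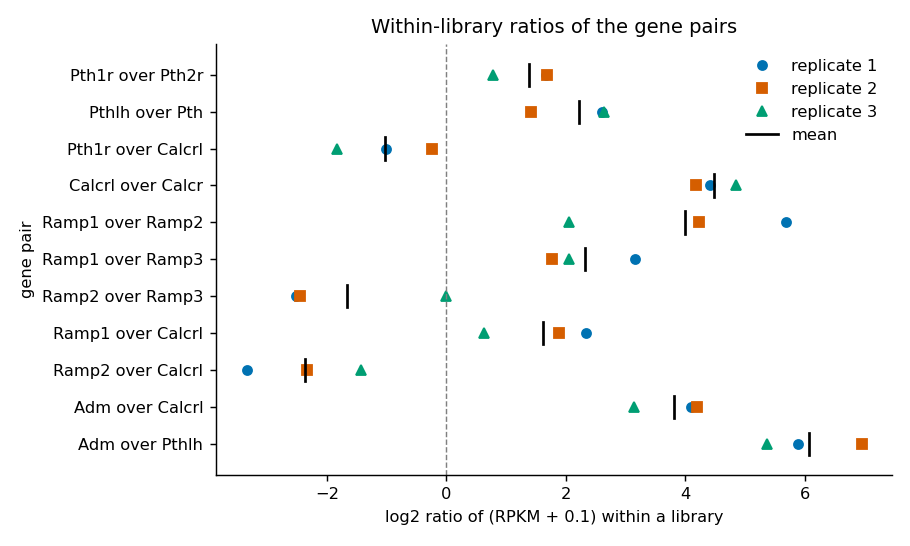
Log2 ratio of (RPKM + 0.1) within each library for the 11 gene pairs, first gene over second (points), with the mean (black bar) and equality (dashed line). Ramp1 over Ramp2 spreads from 2.06 to 5.69, and Ramp2 over Ramp3 reaches -0.01 in replicate 3. The ratios of Calcrl over Calcr and of Pthlh over Pth rest on the listed 0 of the second gene and on the added 0.1.

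Other class B receptor genes were low. None of 11 was above 1 RPKM, 3 were below (Vipr1, Vipr2 and Glp2r), 7 were not called and Adcyap1r1, with 2 rows, was at 0. The 7 not called had lower means than these 3, from 0.0184 RPKM (Sctr) to 0.0806 RPKM (Crhr1). The SE of the log2 level of Sctr was 3.10, so not called does not place these genes near 1 RPKM. The median of the 11 was 0.0321 RPKM. The highest was Vipr2, a receptor for vasoactive intestinal peptide, at 0.434 ± 0.116 RPKM (SD, n = 3), followed by Glp2r at 0.289 ± 0.131 and Vipr1 at 0.285 ± 0.133. Crhr1, a receptor for corticotropin-releasing hormone, was at 0.0806 ± 0.13 RPKM, with 20 of its counts in replicate 1 and 1 and 0 in the others. Levels of Pth2r lay within the range of these receptors. Of the 15 other ligand genes, none was above 1 RPKM, 1 was below (Adcyap1), 9 were not called and 5 were at 0 (Vip, Sct, Gcg, Ghrh and Ucn). Adm2, which encodes a relative of adrenomedullin, was highest at 0.488 ± 0.155 RPKM, then Iapp (amylin), with 18, 0 and 0 counts, and Calca, the gene of calcitonin and CGRP (2 rows), with 15, 0 and 0 counts. The counts of Iapp and Calca thus stood in replicate 1 only, while Calcb, a further CGRP gene, had 4, 2 and 7 counts. Adcyap1 stood at 0.142 ± 0.0547 RPKM.

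Many genes that regulate these receptors or process their peptides were expressed at higher RPKM than the receptors. Of 21 listed, 12 were above 1 RPKM, 2 below, 5 not called and 2 at 0, with a median of 3.35 RPKM. Among all genes tested, 43.2% were above and 13.4% below, and the median with genes at 0 included was 0.497 RPKM. Pam, the enzyme that amidates adrenomedullin and CGRP, stood at 117 ± 11.5 RPKM (SD, n = 3). Vps35, a subunit of the retromer that recycles the PTH receptor from endosomes, stood at 108 ± 8.85 RPKM, and Mme (neprilysin), a peptidase that degrades adrenomedullin and CGRP, at 80.8 ± 6.11. Rgs2, which limits G protein signalling and is known as a gene induced by PTH in bone cells, stood at 26.6 ± 1.32 RPKM. Crcp, a component of CGRP receptors, was at 19.4 ± 2.33 RPKM, and Cxcr7 (Ackr3), a scavenger receptor for adrenomedullin and chemokines, at 8.85 ± 0.994. Among genes that turn off or anchor Pth1r, the kinase genes Grk5 and Adrbk1 were at 4.90 ± 0.386 and 3.35 ± 0.443 RPKM and the scaffold gene Slc9a3r1 at 4.62 ± 1.52. The beta-arrestin gene Arrb2 was at 0.572 ± 0.288 and not called, while Arrb1, with 2 rows, was at 0. The convertase gene Furin was at 0 in both of its rows. Grk6, with 3 rows, had 0, 1 and 1 counts, and Vps26a, with 2 rows, had 13, 1 and 0, and neither was called. Low values of symbols with several rows in these lists are uncertain in the same way as those of Pth1r.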

How the data were processed

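RNA-seq was done on 3 libraries of PTH-treated IDG-SW3 cells. Libraries were directional and made after depletion of ribosomal RNA, per the labels' protocols. Per the submitters' processing notes, TopHat and build mm9 were used; the counting tool, all versions and how strand, duplicates and shared reads were treated were not given in the sources used here. The deposited values are whole numbers per row, used as raw counts although the file names say RPKM; every RPKM rests on this reading.

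Rows were summed per symbol. Lengths were the median over GENCODE M21 basic transcripts (GRCm38), found for 23048 symbols (20840 directly, 2208 by RefSeq synonym), which held 96.4% to 96.5% of the counts; 2362 symbols were left out. Upstream sequences came from RefSeq for 9 of the 10 genes (not Ramp2).

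Levels were tested two-sided against 1 RPKM with edgeR 4.0.16 (R 4.3.3; quasi-likelihood, trended dispersion, robust, expected count at 1 RPKM as offset, Poisson bound on p; genes with at least 1 count; Benjamini-Hochberg threshold 0.05) and tested on simulated data. The simulated counts were drawn with the dispersion trend of these data, so they cannot show whether that trend suits genes with few counts. Pairs used log2(RPKM + 0.1) and an exact sign-flip permutation test. Poisson and binomial intervals are exact at 95% and cover counting error only. Alternatives were limma 3.58.1, DESeq2 1.42.0, other scalings, filters, lengths, row treatments and pseudocounts, and leaving out each library. The length from unshared bases was chosen after seeing the data. Named genes were all 10 genes, up to 4 of each other list by mean RPKM, 3 nearest to Pth1r, and any gene a result turned on. Genes named beside these were chosen after their values were seen. The genes and lists were chosen with earlier results of these data known.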

Additional observations from a re-analysis of the deposited data

How the results depend on the processing

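Adm, Ramp1 and Calcrl were the 3 genes above 1 RPKM under all alternatives except DESeq2, where Calcrl was not called, and except the unshared bases, where Pth1r was also above. The number of genes below 1 RPKM, 1 (Pth2r), was 3 with no filter, since Pth and Calcr were then tested, 3 with limma, 2 with the mean over rows, 0 with DESeq2 and 0 with any library left out. The log2 level of Pth1r changed sign with the longest transcript (-0.0053), the mean over rows (-1.53), the highest row (-0.51) and without replicate 2 (-0.26, the range being -0.26 to 0.26 with any library left out). With the unshared bases the pair Pth1r over Calcrl changed sign (log2 ratio 0.33). The other 109 alternative values of the pairs kept their direction, but not all of them could have changed it. Pth and Calcr were at 0, which fixed the direction of Pthlh over Pth and Calcrl over Calcr. The row treatments and unshared bases leave genes with 1 row as they were. Among all genes, the 2817 below 1 RPKM became 4345 with no filter, 268 with DESeq2, 9855 with limma, 1223 without replicate 1 and 910 without replicate 2, and the causes were not tested. TMM and DESeq2 scaling changed no call of the 10 genes. Depth limits the low genes: Ramp2, Pthlh and Pth2r rest on 4 to 46 counts a library. No pairing of treated with control libraries was possible because the 3 libraries form 1 group.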
